A study of Mus musculus with 47 samples.

Results

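The respiratory chain and ATP synthase were examined in the mouse hippocampus as 1 set of genes, divided by the genome that encodes them. Members were the count-table rows whose symbols start with Nduf and a subunit letter (a, b, c, s or v) and number, are Sdha to Sdhd, or start with Uqcr, Cox4 to Cox8, Atp5 or, for the mitochondrial genome, mt-Nd, mt-Co, mt-Cytb or mt-Atp, with at least 470 reads summed over 47 libraries. Of the 35486 rows, 97 symbols matched and 89 members reached that sum. They comprised 81 nuclear genes (38 of complex I, 4 of complex II, 8 of complex III, 16 of complex IV and 15 of complex V) and 8 mitochondrial genes (6 of complex I, mt-Cytb of complex III and mt-Co1 of complex IV). Ndufb1-ps is among them, since the rule bars the ending -ps only for Atp5 symbols. All 89 members passed the count filter that left 17778 genes for testing. The sum was just exceeded by Cox7a1 (560 reads) and Cox4i2 (586 reads) and just missed by Atp5g2 (375 reads) and Cox7b2 (259 reads).

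The hippocampi were those of male C57BL/6J mice injected intraperitoneally with mouse platelet factor 4 (mPF4), a chemokine that platelets release, or with vehicle (Veh). Young Veh (n = 13) and Young mPF4 (n = 12) mice were labelled 3.75 to 5.26 months old, and Aging Veh (n = 12) and Aging mPF4 (n = 10) mice 17.4 to 20.23 months old. No transgene or deletion is named for any group. Whole hippocampal RNA was copied to full-length cDNA by the Smart-Seq2 method and sequenced without strand information.

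Complexes I to IV of the inner mitochondrial membrane pass electrons from NADH and succinate to oxygen and pump protons, and complex V (ATP synthase) uses the proton gradient to make ATP. Every complex except complex II combines subunits translated in the cytosol with subunits encoded by the mitochondrial genome, so that transcripts of both genomes are needed for assembly. Neurons rely on this pathway for the ion pumping that follows synaptic activity.

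Library totals ranged from 2242879 to 21112908 counted reads (median 10374007), and the 8 libraries of lowest depth held at most 4963272. Of these 8 libraries, 4 were Aging Veh, 2 Young mPF4, 1 Young Veh and 1 Aging mPF4. Every marker fixed for hippocampal neurons, astrocytes, oligodendrocytes and microglia passed the count filter. Choroid plexus markers, from epithelium that borders the hippocampus in the ventricle, varied with the group: the sum of 10 markers, in counts scaled to library size (CPM), had medians of 1941 (Veh) and 2377 (mPF4) in young mice and 47.04 (Veh) and 65.8 (mPF4) in aging mice. The ranges, 12 to 4254, 93.91 to 3443, 15.04 to 4253 and 25.86 to 3275 in the same order, overlapped. All 10 markers had a log2 fold change below 0 in Aging Veh against Young Veh and 0 were called by edgeR or DESeq2 (0 also at an unadjusted p under 0.05 by edgeR). Of the other marker lists, 4 genes were called by edgeR with age. Slc1a2 (log2 fold change 0.19, adjusted p = 0.000274) was higher and Aldh1l1 (-0.19, adjusted p = 0.0465) lower among 6 astrocyte markers, C1qa (0.28, adjusted p = 0.0262) was higher among 6 microglial markers and Rgs5 (0.29, adjusted p = 0.00728) among 8 pericyte markers. All 6 microglial and all 6 oligodendrocyte markers were above 0 with age, and all were above 0 with mPF4 in aging mice, where 0 were called. Summed microglial markers had medians of 391.2 CPM (340.6 to 417.2) in Young Veh, 433.4 CPM (365.2 to 498.6) in Aging Veh and 471 CPM (392.5 to 533.2) in Aging mPF4. For oligodendrocyte markers the medians were 6303 CPM (5533 to 6897), 6818 CPM (5335 to 8462) and 7277 CPM (6381 to 7764), and for astrocyte markers 3362 CPM (3218 to 3716), 3629 CPM (3506 to 4086) and 3577 CPM (3416 to 4195). Excitatory neuron markers had 5 of 7 above 0 with age and 4 of 7 below 0 with mPF4 in aging mice (medians 4436, 4639 and 4394 CPM in the same groups), with 2 higher and then 2 lower at an unadjusted p under 0.05. Of the inhibitory neuron markers 4 of 6 were below 0 with age and 4 of 6 above 0 with mPF4, of the smooth muscle markers 4 of 5 and then 5 of 5 were below 0 (medians -0.38 and -0.21), and all 5 ependymal markers were below 0 with age (median -0.36). The part of these cell types in the members' values was not tested. The sample titles also hold a running number after the letters Hi, whose meaning the labels do not state. These numbers do not overlap between the ages, nor between Veh and mPF4 in aging mice, so that in both comparisons whatever they track and the group cannot be told apart, whereas those of the young groups are interleaved.

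The mitochondrial genome holds 13 protein genes and all 13 had a row, but 5 rows were empty or nearly so. Over all 47 libraries mt-Co2, mt-Co3 and mt-Atp8 were listed with 0 reads, mt-Atp6 with 1 read and mt-Nd4l with 3 reads, while mt-Co1 had 2988128 reads and mt-Cytb 2444017. The 5 genes encode subunits of complexes I, IV and V, and all lie in a single run of the mitochondrial genome, bases 6381 to 11043. Annotated pseudogenes on chromosome 1 (chr1:24611535-24616197, GRCm38, minus strand, 4663 bases) carry copies of that run. The copies of mt-Co2, mt-Co3, mt-Atp6 and mt-Nd4l, named Gm28661, Gm28437, Gm10925 and Gm10222, matched the mitochondrial gene at every aligned base. None of the pseudogenes had a row of its own in the count table. The copy of mt-Atp8 was not read here, because only annotated transcripts were compared.

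The start of mt-Co2 and its nuclear copy are shown first because a read from either cannot be placed uniquely, and a stretch of mt-Nd2 and its more diverged copy on chromosome 2 because a read there can. The stretches are 90 bases of GRCm38, at chrM:7013-7102 and chr1:24615476-24615565 (minus strand) for the first pair and at chrM:4462-4551 and chr2:22590424-22590513 (minus strand) for the second. Capitals mark bases that differ within a pair.
mt-Co2: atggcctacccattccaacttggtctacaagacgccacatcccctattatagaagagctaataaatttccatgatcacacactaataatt
Gm28661: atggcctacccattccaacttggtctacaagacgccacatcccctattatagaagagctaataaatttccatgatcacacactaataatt
mt-Nd2: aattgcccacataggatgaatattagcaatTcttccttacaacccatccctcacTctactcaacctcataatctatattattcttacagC
Gm13339: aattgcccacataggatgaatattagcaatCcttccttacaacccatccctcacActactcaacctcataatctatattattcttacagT
The first pair is identical over the stretch and the second differs at 3 of 90 bases.

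Reads were counted on the mitochondrial genes that lie outside the duplicated run or reach beyond it. The 5 genes wholly outside it, mt-Nd1, mt-Nd2, mt-Nd5, mt-Nd6 and mt-Cytb, had 502.8 to 2136 reads per base summed over the libraries. Of the genes partly inside, mt-Co1 (31.8% inside) had 1934 reads per base and mt-Nd4 (63.6% inside) had 554.2. The gene mt-Nd3 lies wholly inside but differs from its copy Gm28438 at 1 of 345 aligned bases, and it had 37.36 reads per base. Neither mitochondrial gene of complex V was therefore a member, and the counts of mt-Co1, mt-Nd4 and mt-Nd3 may cover those genes only in part. How the reads were assigned to genes is not given in the sources used here, and its part in these zeros was not tested.

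**Figure D1:**
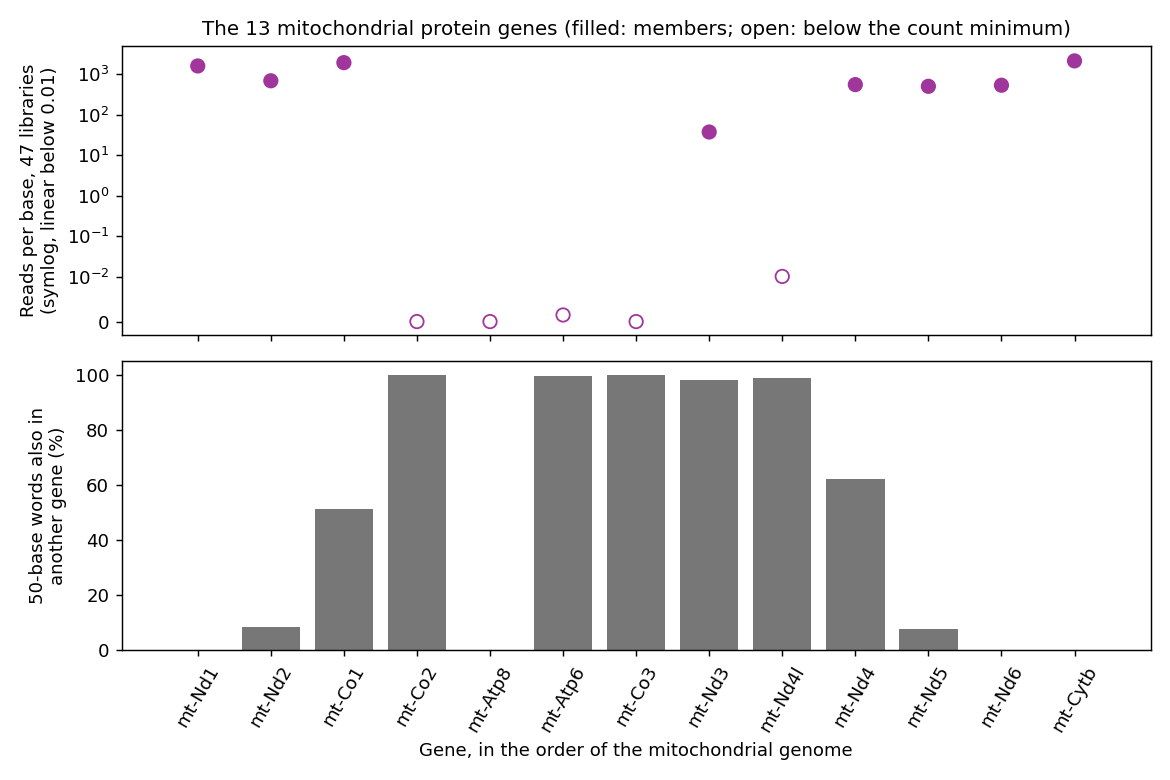
Upper panel: reads per base of the 13 mitochondrial protein genes, summed over the 47 libraries (symmetric log axis, linear below 0.01; filled points are members), in the order of the mitochondrial genome. Lower panel: percent of each gene's 50-base windows that also occur in another annotated gene. Genes with at least 98.8% of windows shared are at or near 0 reads, mt-Nd3 with 98% has 37.36 reads per base, and the bar of mt-Atp8 is at 0 because no annotated transcript holds its copy.

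Per kilobase of transcript, the mitochondrial genes other than mt-Nd3 (80.1 CPM per kb) were the most abundant members. Mean levels were 4449 CPM per kb for mt-Cytb, 4100 for mt-Co1 and 3337 for mt-Nd1, and the median of the 8 mitochondrial members was 1320. The median of the 81 nuclear members was 110.7 CPM per kb. The mitochondrial gene on the opposite strand, mt-Nd6, had 1129 CPM per kb, but without strand information its reads cannot be told from those of transcripts running the other way.

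Among nuclear members the level per kb differed between complexes and between subunits of a complex. Medians were 101.6 CPM per kb in complex I, 114.2 in complex II, 134.1 in complex III, 78.84 in complex IV and 131.6 in complex V. The catalytic subunit of ATP synthase, Atp5b, was the highest at 656.5 CPM per kb, followed by Cox4i1, the common form of a regulatory subunit of cytochrome c oxidase, at 602.3. Ndufa4 led complex I at 346 CPM per kb, although its product is now assigned to cytochrome c oxidase. Uqcrc1, a core subunit of complex III, reached 243.4 CPM per kb, and Sdha, the flavoprotein that oxidizes succinate, 197.1. The lowest of their complexes were Ndufa4l2 (2.705, I), Sdhc (22.7, II), Uqcrq (69.03, III), Cox4i2 (1.622, IV) and Atp5g1 (3.667, V), in the same unit. Some of these ranks depend on the length of the principal transcript, which is 4.715 kb for Atp5g1. Before division by length Atp5g1 had a mean of 17.29 CPM, against 1.189 for Cox4i2 and 2.527 for Ndufa4l2. By mean CPM, Uqcrb (37.77), Cox7a1 (1.152) and Atp5l (13.52) were lowest in complexes III, IV and V. Ndufa4l2 and Sdhc remained lowest in theirs. Atp5g1 encodes the membrane ring subunit of ATP synthase.

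Low levels of some nuclear members accompanied shared sequence. Processed pseudogenes are common for this family, and 84.8% of the 50-base windows of Atp5l and 53% of those of Cox7c also occur in other annotated transcripts. Their median level was 21.58 CPM per kb, against 107.9 for the 26 nuclear members with 10 to 50% of windows shared and 111 for the 53 with less. Atp5l is an ATP synthase subunit of the membrane part and Cox7c a small subunit of cytochrome c oxidase, and their counts are uncertain. Opposite-strand exons covered at least 20% of 2 nuclear members, Ndufb6 (by Smim27) and Ndufa13 (by Tssk6), named here for that overlap and uncertain without strand information.

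Promoters of the nuclear members were searched for sites of the factors that classically drive respiratory genes. RefSeq gave a promoter window (250 bases before to 50 after the start) for 66 of the 81. The NRF1 site GCGCANGCG, on either strand, was present in 18 of the 66 (27.3%), against 6.25% of all 32851 promoters and 13.7% of the 12081 tested genes with a window. The GABPA site CCGGAAGT was found in 5 (7.58%), against 3.89% and 8.01%. The YY1 site AAGATGGCG was found in 7 (10.6%), against 1.4% and 3.1%. The 3 motifs were searched on both strands. A match describes letters in the window and not binding.

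Sites of the NRF1 type are shown for 4 nuclear members, 3 that the naming rule took and Atp5k, which was chosen after its values were seen. Each is 29 bases of GRCm38.p6 on the minus strand, with the site in capitals (in Atp5k sites on both strands overlap): Atp5k at chr5:108434430-108434458, Cox6a1 at chr5:115349057-115349085, Sdha at chr13:74350277-74350305 and Sdhd at chr9:50603910-50603938.
Atp5k: ttcactgcgGCGCATGCGCctttctggct
Cox6a1: cggataaagtGCGCAGGCGctggagttcc
Sdha: ggggcgtgttGCGCAGGCGcagaatcttc
Sdhd: tcgctggggtGCGCACGCGcggtggcagc
The 4 sites share every fixed letter of the motif.

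Both sets took similar shares of the reads in the 4 groups. Nuclear members held a median of 1.10% of reads in young mice with Veh (1.034 to 1.395%) and 1.11% with mPF4 (1.049 to 1.206%), and 1.07% in aging mice with Veh (1.024 to 1.137%) and 1.09% with mPF4 (1.046 to 1.271%). Mitochondrial members held 2.01% (1.758 to 2.249%), 2.08% (1.78 to 2.265%), 2.036% (1.736 to 2.356%) and 1.946% (1.853 to 2.334%) in the same order. The groups overlapped in both measures. In bulk tissue, fewer cells of a type and less RNA per cell cannot be told apart.

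The ratio of mitochondrial to nuclear member reads within a library had a median of 1.816 in young mice with Veh (1.612 to 1.947) and 1.859 with mPF4 (1.623 to 2.126), and 1.907 in aging mice with Veh (1.638 to 2.143) and 1.788 with mPF4 (1.554 to 2.132). The ranges of all 4 groups overlapped. The medians placed Aging Veh highest and Aging mPF4 lowest (SD within the groups 0.107 to 0.172). No test was made of this ratio, since the members were chosen with results known.

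**Figure D2:**
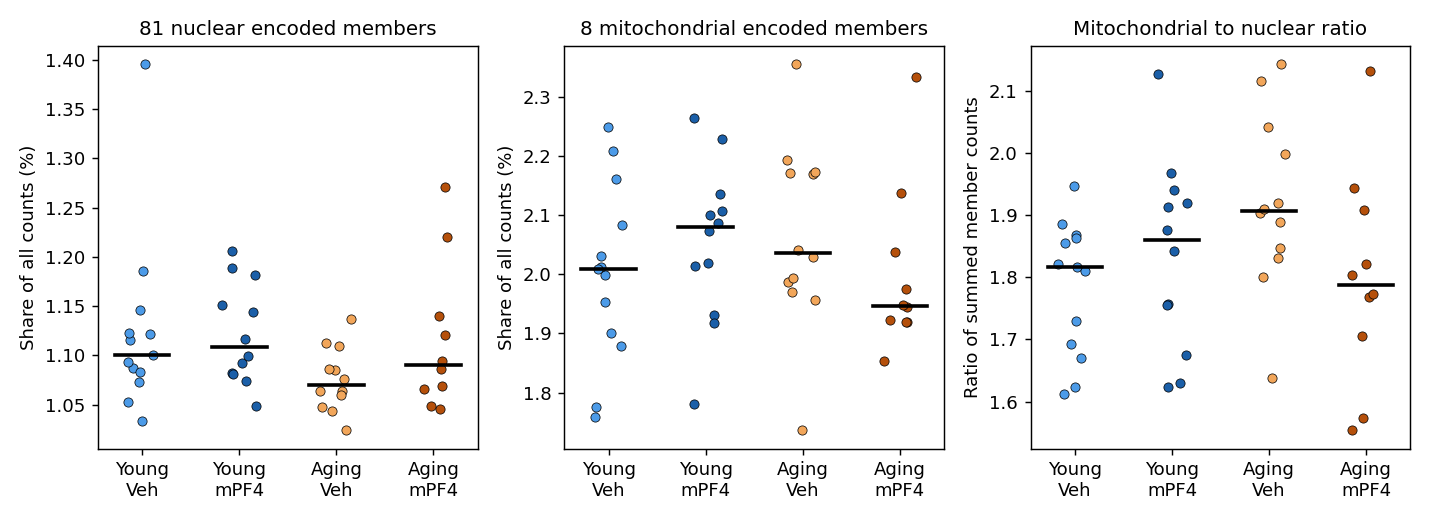
Share of counted reads taken by the 81 nuclear members and by the 8 mitochondrial members (percent), and their ratio, in each of the 47 libraries by group, with group medians as lines. The groups overlap in all panels, and the highest nuclear share is 1.395% in a Young Veh library.

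A further 3 libraries stood apart in the balance of long and short transcripts and had high nuclear shares, and the counts below or above 0 over all nuclear and all mitochondrial members are given with and without them. The length index compares 4420 tested genes with long transcripts (at least 4594 bases) with 4420 with short ones (at most 2006 bases), as the first set's mean log2 CPM, centred by gene, minus the second's. It was -0.348 in Young Veh 4, -0.228 in Aging mPF4 8 and -0.163 in Young mPF4 4, and the next lowest library was at -0.0836. Of the members, 64 nuclear and all 8 mitochondrial genes are among those 4420 short genes and so enter the index.

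Nuclear members were high in these 3 libraries, and mitochondrial members had differences in both directions. In Young Veh 4, 70 of 81 nuclear members had their highest level of the group, with a median log2 difference of 0.49 from the rest of the group, and the 8 mitochondrial members had a median difference of 0.02. In Aging mPF4 8, 53 nuclear members were the highest of their group (median difference 0.28) and the mitochondrial median was -0.16. In Young mPF4 4 the medians were 0.16 and -0.16. In Young Veh 4, mt-Cytb (7623 CPM, others at most 5397) and mt-Nd1 (4336, others at most 3570) were the highest of the group. The same genes were highest in Aging mPF4 8, at 6620 CPM (others at most 5728) and 3599 CPM (others at most 3598). In contrast, mt-Nd3 was the lowest of the group in all 3 libraries, at 15.44 CPM in Young Veh 4, 14.93 in Aging mPF4 8 and 20.98 in Young mPF4 4. Uqcrc1 reached 729 CPM in Young Veh 4 against at most 426.1 in the other Young Veh libraries, and 681.5 in Aging mPF4 8 against at most 418.2 in the other Aging mPF4 libraries. Sdhb, the iron-sulphur subunit of complex II, reached 300.9 CPM in Young Veh 4 (others at most 173.3) and 277.8 in Aging mPF4 8 (others at most 179.3). The cause of these libraries' position was not tested.

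**Figure D3:**
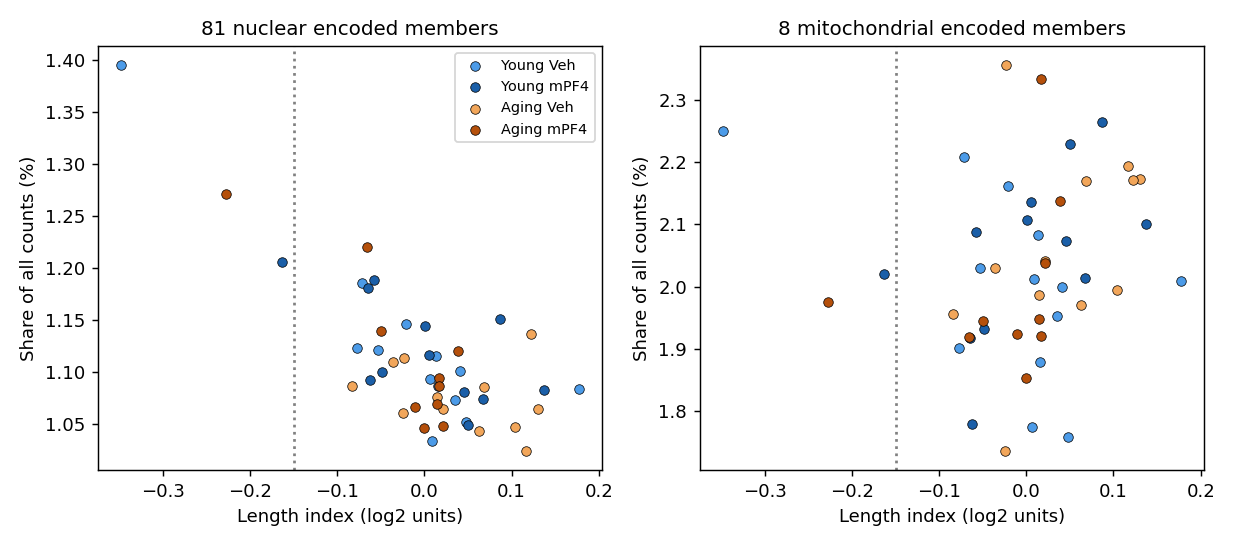
Nuclear and mitochondrial member shares of each library (percent) against its length index (log2), coloured by group. The 3 libraries below -0.15 have nuclear shares of 1.395, 1.271 and 1.206%, the highest of their groups.

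The comparison of Aging Veh with Young Veh asked how the chain differs with age under vehicle. No member passed edgeR's quasi-likelihood test (0 of 81 nuclear and 0 of 8 mitochondrial, against 2.77% of all genes tested), and DESeq2 called 0 as well (3.8% of its tested genes). The smallest adjusted p was 0.136 for nuclear and 0.156 for mitochondrial members. At an unadjusted p under 0.05 there were, against 15.2% of all genes, 9 nuclear members, all lower in Aging Veh (6.76% of all genes were), and 2 mitochondrial members, both higher (8.43%). With single libraries left out the 9 became between 5 (without Young Veh 4) and 21 (without Aging Veh 1), and without the 3 libraries that stand apart 7. The 2 mitochondrial members became 0 without the 8 libraries of lowest depth, 1 with the length index as a covariate, 3 without the 3 libraries and 3 without Aging Veh 1. The 95% interval of the log2 fold change lay within 0.25 of 0 for 50 nuclear and 7 mitochondrial members, and within 0.5 for 75 and 8.

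The sign of the difference was mostly negative for nuclear members. Of the 81, 74 had a log2 fold change below 0, against 54.7% of all genes, with a median of -0.0845 against -0.0129 for all genes and -0.0324 for the short genes without the members. By complex, the counts below 0 were 33 of 38 (I), 4 of 4 (II), 8 of 8 (III), 15 of 16 (IV) and 14 of 15 (V), and the medians ran from -0.0263 in complex II to -0.0948 in complex V. The mitochondrial members had 3 of 8 below 0 and a median of 0.0274. These counts moved with the libraries described above: without the 3 libraries 52 nuclear members were below 0 (median -0.0394), without Young Veh 4 alone 54 were, and with the length index as a covariate 48 were (median -0.025). Of the mitochondrial members 4 of 8 were below 0 in both the fit without the 3 libraries (median 0.0237) and that with the length index (median -0.0025).

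In complex I, Ndufv3, an accessory subunit of the NADH-oxidizing module, had the smallest p of all members. Its level was 56.97, 62.29 and 99.38 CPM (lowest, median and highest) in Young Veh and 45.6, 54.3 and 76.48 CPM in Aging Veh. The groups overlapped, with the lowest values in Aging Veh. The highest Young Veh value of Ndufv3 came from Young Veh 4, and the next highest was 72.9 CPM. The log2 fold change was -0.21 ± 0.0747 (SE, unadjusted p = 0.00825, adjusted p = 0.136 by edgeR). Ndufc1, a small accessory subunit of the membrane arm, had 45.49, 50.75 and 93.94 CPM in Young Veh and 37.33, 44.06 and 58.79 CPM in Aging Veh. Its highest Young Veh value, from Young Veh 4, stood far above every Aging Veh value, and the rest overlapped. The log2 fold change was -0.25 ± 0.0925 (adjusted p = 0.138), and -0.16 without the 3 libraries.

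Complex II, which is wholly nuclear encoded, had the median closest to 0 of the complexes. Sdha had 530.4, 568.3 and 675 CPM in Young Veh and 508.6, 574.1 and 622.5 CPM in Aging Veh, ranges that nearly coincided, with a log2 fold change of -0.0068 ± 0.0372 (95% interval -0.0814 to 0.0678). Sdhb had -0.0067 ± 0.0843, a value that rested on the libraries that stand apart (0.10 ± 0.0398 without the 3, adjusted p = 0.159). For the membrane anchors Sdhc and Sdhd the log2 fold changes were -0.05 ± 0.0544 and -0.09 ± 0.0533, and neither passed the test (Sdhd -0.04 without the 3 libraries).

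In complex III the smallest p was that of Uqcr10, a small subunit, with medians of 92.68 CPM in Young Veh and 81.65 CPM in Aging Veh (log2 fold change -0.16 ± 0.0809, adjusted p = 0.335). Uqcrq, another small subunit, had -0.18 ± 0.0919, and the core subunit Uqcrc1 -0.05 ± 0.094. Without the 3 libraries the log2 fold change was -0.11 for Uqcr10, -0.07 for Uqcrq and 0.05 for Uqcrc1, the last with the opposite sign. In complex IV, Cox7c, uncertain through shared sequence, had 8.895, 9.635 and 12.59 CPM in Young Veh and 6.054, 8.765 and 11.44 CPM in Aging Veh. The Aging Veh median lay just below the lowest Young Veh library, and the upper parts overlapped (log2 fold change -0.15 ± 0.0773, adjusted p = 0.333). In complex V, Atp5d, a subunit of the rotating stalk, had 151.9, 173.6 and 203.3 CPM in Young Veh and 141.9, 162.1 and 177.9 CPM in Aging Veh, again overlapping (-0.11 ± 0.0439, adjusted p = 0.167). Atp5k, a subunit at the dimer interface chosen after its values were seen, had -0.31 ± 0.12 (adjusted p = 0.172), while the catalytic Atp5b had -0.05 ± 0.0399.

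Among the mitochondrial members, mt-Nd5, a proton-pumping subunit of complex I, had 1621, 1885 and 2130 CPM in Young Veh and 1742, 2026 and 2328 CPM in Aging Veh. The whole Aging Veh range was shifted up but overlapped (log2 fold change 0.12 ± 0.0448, adjusted p = 0.156). The catalytic subunit of cytochrome c oxidase, mt-Co1, had 5553, 6161 and 6530 CPM in Young Veh and 5357, 6665 and 7668 CPM in Aging Veh. Aging Veh was the more dispersed group and held both the lowest and the highest of these values (0.12 ± 0.0498, adjusted p = 0.196). Without the 8 libraries of lowest depth, of which 4 were Aging Veh, the mitochondrial median was -0.0142 and 5 of 8 were below 0. The others ran from -0.13 ± 0.0906 for mt-Nd6 to 0.06 ± 0.0741 for mt-Nd4, with 0.03 ± 0.0623 for mt-Cytb, -0.06 ± 0.0554 for mt-Nd1, -0.01 ± 0.0643 for mt-Nd2 and 0.03 ± 0.0999 for mt-Nd3. Without the 3 libraries mt-Cytb had 0.09 ± 0.0431, mt-Nd1 -0.01 and mt-Nd3 -0.03.

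**Figure D4:**
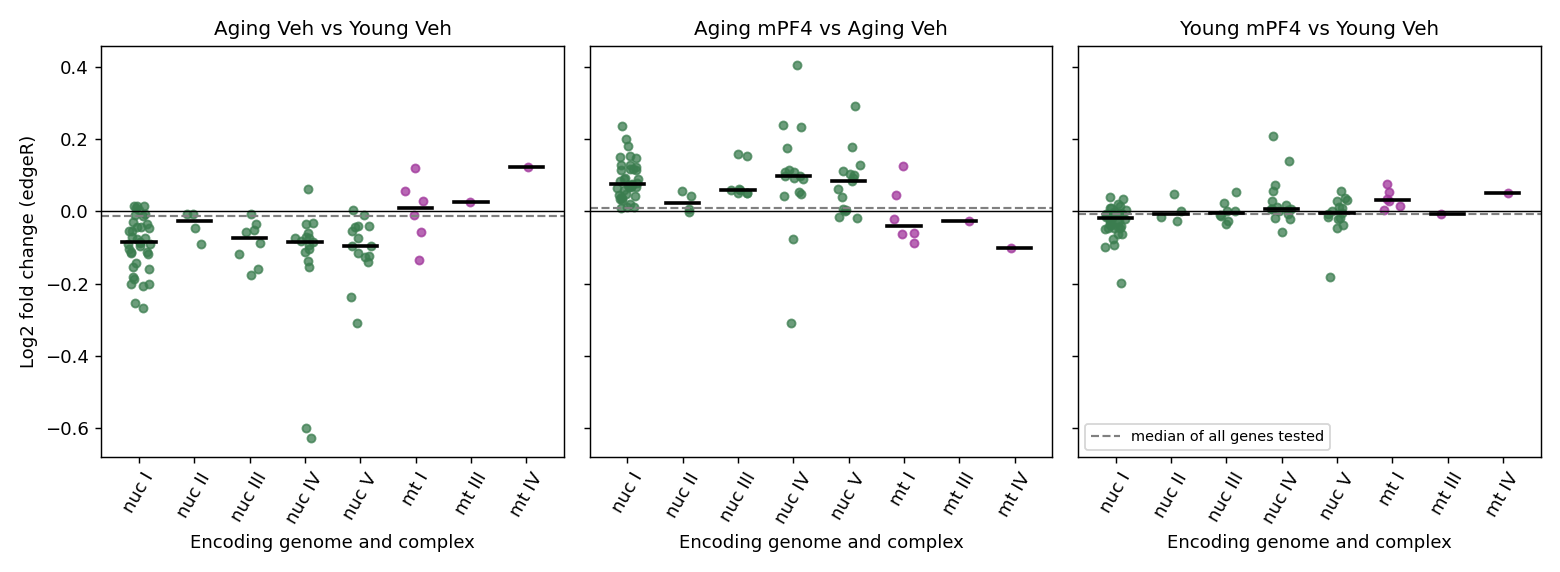
Log2 fold change of each member by complex in the comparisons of age, of mPF4 in aging mice and of mPF4 in young mice (points are genes, nuc nuclear and mt mitochondrial, bars are medians, the dashed line is the median of all genes). Nuclear members lie mostly below 0 in the first (74 of 81) and above 0 in the second (76 of 81), which share the Aging Veh libraries, and no member passed the test in any.

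The comparison of Aging mPF4 with Aging Veh asked how mPF4 altered the chain in aging mice. It shares the Aging Veh libraries with the comparison of age, so that opposite signs in the 2 comparisons are not separate observations. By edgeR 0 of 81 nuclear and 0 of 8 mitochondrial members were called (0.0337% of all genes), and by DESeq2 0 (0.173%). At an unadjusted p under 0.05 there were 7 nuclear members, all higher in Aging mPF4, and 0 mitochondrial members by edgeR (6.2% of all genes, 2.6% higher and 3.59% lower). The 7 became 3 without Aging mPF4 5, 8 or 11, 15 without Aging Veh 1 and 6 without the 3 libraries that stand apart. The smallest adjusted p was 0.528. The 95% interval lay within 0.25 of 0 for 50 nuclear and 6 mitochondrial members.

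Nuclear members were mostly above 0, 76 of 81 against 54% of all genes, with a median of 0.074 against 0.0086 for all genes and 0.0362 for the short genes without the members. All 38 of complex I and all 8 of complex III were above 0, as were 3 of 4 in complex II, 14 of 16 in complex IV and 13 of 15 in complex V. The mitochondrial members had 2 of 8 above 0 and a median of -0.043. Without Aging mPF4 8, 61 nuclear members were above 0 (median 0.0321), without the 3 libraries also 61 (median 0.0322), and with the length index as a covariate 47 (median 0.0161). The mitochondrial members were then evenly divided, with 4 of 8 above 0 without Aging mPF4 8 and without the 3 libraries (median -0.0211 in both) and with the length index (median -0.0204).

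The member of smallest p was Cox7c, whose counts are uncertain through shared sequence. It had 6.054, 8.765 and 11.44 CPM in Aging Veh and 8.808, 10.76 and 12.64 CPM in Aging mPF4. The lowest Aging mPF4 library lay just above the Aging Veh median, and the upper parts overlapped. The log2 fold change was 0.24 ± 0.0829 (unadjusted p = 0.00594, adjusted p = 0.528 by edgeR), and 0.21 without the 3 libraries. Cox6a2, the heart and muscle form of a small cytochrome c oxidase subunit, had 2.623, 3.58 and 5.216 CPM in Aging Veh and 2.645, 4.93 and 6.785 CPM in Aging mPF4. The ranges began together and the Aging mPF4 range reached higher (0.41 ± 0.146, adjusted p = 0.544).

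Other members had values of the same size or smaller. Ndufc1 had 43.16, 53.04 and 75.65 CPM in Aging mPF4, overlapping the Aging Veh values given above (log2 fold change 0.24 ± 0.099, adjusted p = 0.708). Atp5md, a small membrane subunit of ATP synthase, had medians of 28.85 CPM in Aging Veh and 33.11 CPM in Aging mPF4 (0.18 ± 0.0755, adjusted p = 0.712). Atp5k had 31.88, 41.3 and 67.89 CPM in Aging Veh and 40.2, 52.11 and 72.9 CPM in Aging mPF4 (0.29 ± 0.128, adjusted p = 0.743). Its lowest Aging mPF4 library lay just below the Aging Veh median. The abundant Cox4i1 had 0.11 ± 0.0547 (adjusted p = 0.792) and the complex III subunit Uqcr10 0.15 ± 0.0864. Sdha (-0.0011 ± 0.0397), Sdhc (0.0061 ± 0.0583) and Atp5b (0.0067 ± 0.0427) were closest to 0 of the genes named (-0.02, 0.04 and 0.03 without the 3 libraries).

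For mt-Co1 the values were 5357, 6665 and 7668 CPM in Aging Veh and 5648, 6033 and 7960 CPM in Aging mPF4. The highest library was an Aging mPF4 library, and the medians were in the opposite order (log2 fold change -0.10 ± 0.0534, adjusted p = 0.838). The others ran from -0.09 ± 0.0794 for mt-Nd4 to 0.13 ± 0.0968 for mt-Nd6, and mt-Cytb had -0.03 ± 0.0667 (-0.07 without the 3 libraries).

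In young mice, the comparison of mPF4 with vehicle gave 0 calls among members by edgeR and by DESeq2, as among all genes (0% in both). At an unadjusted p under 0.05 there was 1 nuclear member, Atp5l, which was lower with mPF4, and 0 mitochondrial members by edgeR (1.2% of all genes, 0.714% lower and 0.484% higher). Atp5l, named after its values were seen and uncertain through shared sequence, had 11.25, 14.02 and 17.66 CPM in Young Veh and 10.9, 12.48 and 13.67 CPM in Young mPF4. The Young mPF4 range lay wholly below the Young Veh median (log2 fold change -0.18 ± 0.0705, adjusted p = 1). Of the nuclear members 50 of 81 were below 0 (median -0.0075, all genes -0.006), but without Young Veh 4 only 9 were (median 0.0429), and without the 3 libraries 15 (median 0.0326). Of the mitochondrial members 7 of 8 were above 0 (median 0.0314), as they were without the 3 libraries (median 0.0545).

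Whether mPF4 acted differently at the 2 ages was tested as an interaction. Again 0 members and 0 genes in all were called by edgeR and by DESeq2 (0%). At an unadjusted p under 0.05 (3.98% of all genes) there were 4 nuclear members, all more positive in aging mice (1.79% of all genes were), namely Ndufc1, Cox7c, Cox7a2l and Atp5l, and 1 mitochondrial member more negative (2.19% of all genes), mt-Co1. The interaction was 0.27 ± 0.104 for Atp5l, whose counts like those of Cox7c are uncertain, and -0.15 ± 0.073 for mt-Co1, each with adjusted p = 1. The 4 nuclear members became 2 without the 3 libraries and 1 with the length index, and the mitochondrial member 0 in both. With single libraries left out the nuclear count ran from 1 to 7 (without Aging mPF4 9) and the mitochondrial count from 0 to 2. With a replicate block the nuclear count was 6. Of the nuclear members 76 of 81 were above 0, against 55.3% of all genes (median 0.0792), and the mitochondrial median was -0.0497. This too moved with the libraries: without the 3 libraries 45 nuclear members were above 0 (median 0.0085) and the mitochondrial median was -0.0718, and with the length index as a covariate 46 were below (median -0.0041).

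Several complex IV and complex I subunits have a common and a tissue-restricted form, and the restricted forms were rare in the hippocampus. The median share of the restricted form, as a percent of the reads per base of both, was at most 2.64% for Cox6a2 with Cox6a1, 1.19% for Cox6b2 with Cox6b1, 0.917% for Ndufa4l2 with Ndufa4 and 0.278% for Cox4i2 with Cox4i1 in any group. Cox8b, a heart and muscle form, took a median of 1.64% (Veh) and 2.04% (mPF4) of Cox8a and Cox8b reads per base in young mice, 0.243% (Veh) and 0.176% (mPF4) in aging mice, and up to 4.74% in an Aging Veh library. Cox7a1, the heart and muscle partner of Cox7a2, took medians of 1.11 to 1.89%. In these shares the reads of each form were divided by the length of its principal transcript. Cox8c had 0 reads in the table.

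Cox8b, Cox6b2 (a testis form) and Cox7a1 varied with the choroid plexus markers. The libraries separated at the widest gap of the marker score (the mean log2 CPM of the 10 markers) into 24 rich libraries (4.163 to 6.124) and 23 poor ones (-0.13 to 3.348), and the rich numbered 8 of 13 Young Veh, 8 of 12 Young mPF4, 4 of 12 Aging Veh and 4 of 10 Aging mPF4. Cox8b had 1.091, 3.959 and 10.3 CPM in the rich libraries and 0, 0.2475 and 0.7349 CPM in the poor, with no overlap. A slope of each gene on the score was then fitted in edgeR across all genes, an analysis added after the data had been seen.

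Over all 47 libraries the slope was called for 4 of 81 nuclear members (4.94%, against 8.59% of all genes), Cox8b among them, and 0 of 8 mitochondrial members. Cox8b had 0 to 9 reads in each poor library and so reached the sum for membership through the rich ones, and its log2 slope of 1.00 ± 0.0467 per unit of the score is given as a description. Cox6b2 and Cox7a1 had 718 and 560 reads in all, with medians of 1.964 and 1.583 CPM in the rich libraries. In the poor libraries their medians were 0.7102 and 0.6803 CPM, so the rich libraries counted toward their membership too. Their slopes of 0.39 ± 0.0404 and 0.30 ± 0.0374 are likewise given as a description. The slope was 0.03 ± 0.0089 for Sdhc (adjusted p = 0.0104 by edgeR). Among the 24 rich libraries alone Cox8b, Cox6b2 and Cox7a1 were called (3 of 81, against 1.45% of all genes) with slopes of 1.70 ± 0.158, 1.19 and 0.88, again as a description, and Sdhc was not (adjusted p = 0.826). Among the 23 poor libraries 0 of 80 were called (0.121% of all genes), and Cox8b had too few reads there to be tested. Cox6a2, Cox4i2 and Ndufa4l2 were not called in any of these fits. Marker score and age move together here, and for Cox8b the log2 fold change between Aging Veh and Young Veh was -0.63 ± 0.661 (adjusted p = 0.705) and, with the score as a covariate, 0.38 ± 0.26 (adjusted p = 0.539), the opposite sign.

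**Figure D5:**
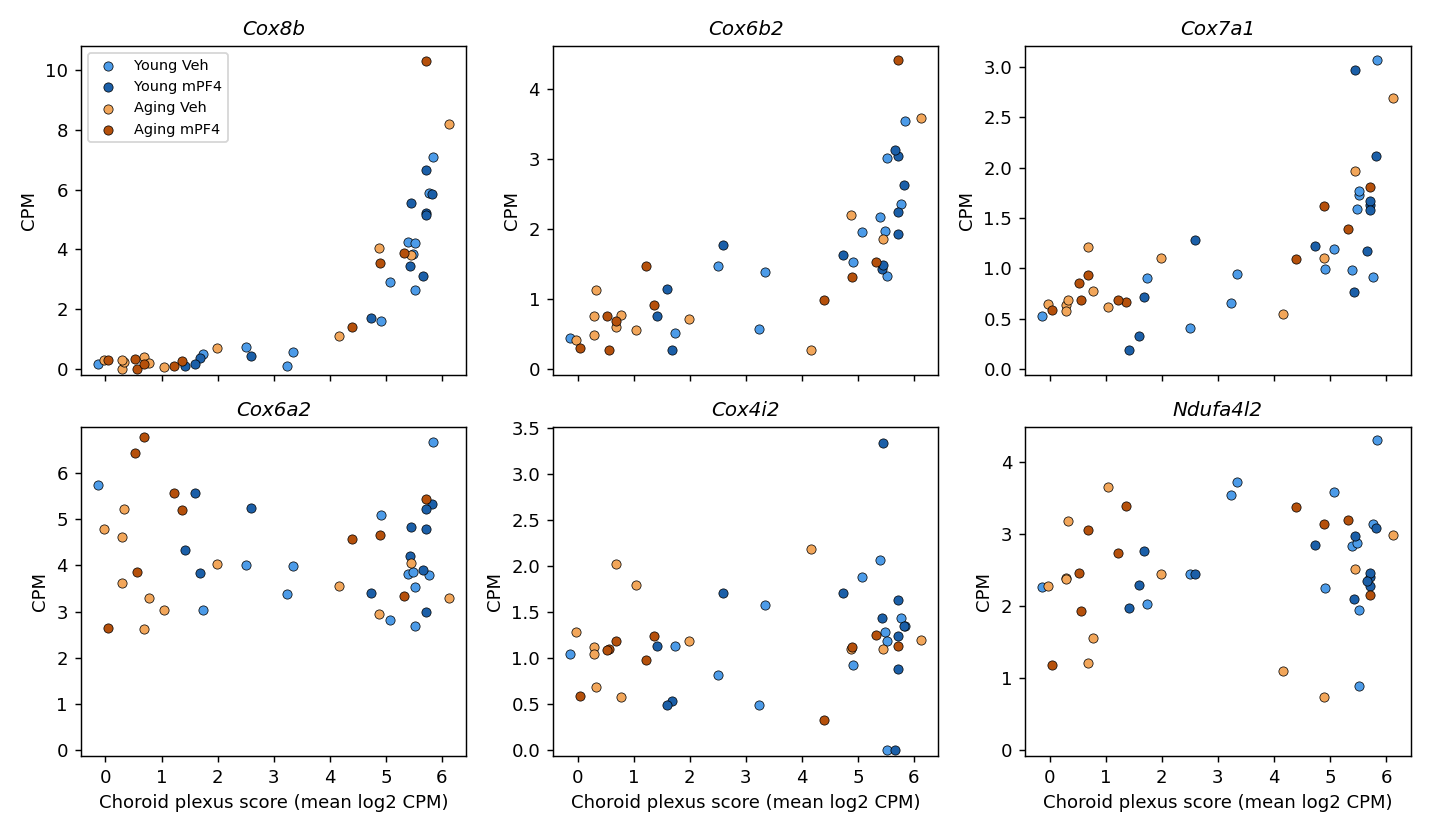
CPM of tissue-restricted isoforms in each library against its choroid plexus marker score (mean log2 CPM of 10 markers), coloured by group. Cox8b rises from at most 0.7349 CPM in the 23 poor libraries to between 1.091 and 10.3 CPM in the 24 rich libraries, while Cox6a2 keeps similar ranges in both.

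Other mitochondrial genes of the nucleus were described by lists, beside all genes, of which 54.7% were below 0 with age and 54% above 0 with mPF4 in aging mice. Of 78 mitochondrial ribosome genes, which translate the mitochondrial mRNAs, 65 were below 0 with age (median -0.0628) and 68 above 0 with mPF4 in aging mice (median 0.0658). Of 16 complex I assembly factors and related genes, 13 were below 0 with age (median -0.0271) and 13 above 0 with mPF4 (median 0.0368), and of 33 assembly factors of complexes II to V, 22 were below (median -0.0302) and 27 above (median 0.0481). Biogenesis regulators such as Nrf1, Gabpa and Ppargc1a were evenly divided, with 6 of 13 below 0 with age and 7 of 13 above 0 with mPF4. Factors of mitochondrial DNA replication, transcription and RNA stability had 18 of 28 below (median -0.0466) and 17 of 28 above (median 0.0179). Of the adenine nucleotide, uncoupling and porin carriers 7 of 9 were below and 8 of 9 above, of the ATP synthase inhibitor and supercomplex factors (Cox7a2l, itself a member, among them) 4 of 4 and 4 of 4, and Cycs and Cyc1 were both below 0 with age and both above 0 with mPF4. These counts too moved with the 3 libraries: without them 47 mitochondrial ribosome genes were below 0 with age (median -0.0101) and 43 above 0 with mPF4 (median 0.0135), with the length index as a covariate 36 were below and 36 above, and the complex I assembly list had 8 of 16 below and 6 of 16 above without them. For the assembly factors of complexes II to V the direction with age turned, with 13 of 33 below 0 both without the 3 libraries (median 0.0119) and with the length index (median 0.0343), and with mPF4 18 were above 0 (median 0.0135) and 15 (median -0.0129) in the same fits. Without the 3 libraries the mitochondrial DNA factors had 15 of 28 below and 15 of 28 above, the regulators 7 of 13 and 7 of 13, the carriers 6 of 9 and 5 of 9, the inhibitor and supercomplex factors 2 of 4 and 3 of 4, and Cycs and Cyc1 1 of 2 and 1 of 2. With the length index the regulators had 9 of 13 below (median -0.049) and 8 of 13 above (median 0.0518). The other lists then had 14 and 15 of 28, 6 and 4 of 9, 1 and 3 of 4, and 1 and 0 of 2. In these lists edgeR called 0 genes in any comparison (2.77% of all genes with age, 0.0337% with mPF4 in aging mice), and DESeq2 called 1, a mitochondrial ribosome gene with age. With the length index as a covariate edgeR called 2 mitochondrial ribosome genes, 1 biogenesis regulator and 1 mitochondrial DNA factor with age, beside 901 of all 17778 genes, and 0 with mPF4 in aging mice. Without the 3 libraries it called 1 mitochondrial ribosome gene and 1 biogenesis regulator with age, beside 888 of all 17799 genes, and 0 with mPF4 in aging mice. At an unadjusted p under 0.05 with age (6.76% of all genes lower), edgeR had as lower 6 of 78 mitochondrial ribosome genes, 5 of 33 assembly factors of complexes II to V, 2 of 16 of complex I and 2 of 28 mitochondrial DNA factors. In the same order these became 3, 0, 1 and 3 with the length index, beside 1737 of all 17778 genes. Without the 3 libraries they became 3, 1, 1 and 3, beside 1501 of all 17799 genes. With mPF4 in aging mice (2.6% of all genes higher) edgeR had as higher 4 of 78, 2 of 33, 2 of 16 and 0 of 28 in the same lists. With the length index 0, 2, 1 and 0 were higher and 3, 0, 1 and 2 lower. Without the 3 libraries 1, 2, 2 and 0 were higher and 2, 1, 0 and 0 lower.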

How the data were processed

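Per the labels, RNA was isolated with RNeasy, copied by Smart-Seq2 and tagmented with Nextera XT. The file deposited by the authors holds raw read counts by gene, not normalized, and the submitters' processing notes name Trim Galore 0.3.7, STAR 2.5.3a and the build GRCm38. The counting tool and annotation are not given in the sources used here. The study's methods excluded samples of low coverage.

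Here the counts of 35486 genes in 47 libraries were fitted with edgeR 4.0.16 in R 4.3.3 (quasi-likelihood test, TMM, filterByExpr, 4 groups in 1 fit, 17778 genes tested), and a gene was called where its p, adjusted over all genes by Benjamini-Hochberg, was below 0.05. DESeq2 1.42.0, which the study's methods name, was the alternative. Standard errors were taken from the F statistic and the log2 fold change. A prior count of 2 entered log2 CPM. Totals of 2242879 to 21112908 reads limit the precision of rare isoforms. Groups came from the sample labels, and no 2 libraries of a group agreed within sampling noise.

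Lengths, overlaps and shared 50-base windows came from the GENCODE vM21 annotation of GRCm38, in which 35047 rows (98.8%) and all 89 members were found by symbol. The NRF1 and YY1 motifs were shortened by 1 base after a first search with the longer forms, which also gave higher shares in members than in all promoters. The steps were tested on simulated counts.

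The members and the gene lists were chosen with earlier results of these data known, so no score over them was tested. Named members are the mitochondrial protein genes, called members, the member of smallest p per complex with age and with mPF4 in aging mice, the restricted isoforms with their partners, the highest and lowest member per complex and the Sdh genes. Others are said in the text to be chosen after their values were seen, or are given as exceptions or lists of 5 or fewer. Alternatives were other scalings, count filters and fits, a replicate block, covariates, the 8 libraries of lowest depth and single libraries left out. Added after the data were seen were the omission of 3 libraries by a length-index limit of -0.15 (also for the lists, with the index as a covariate), the ratio per kb of principal transcripts, and the slope on the choroid plexus score, which replaced correlations of single isoforms computed first.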

Additional observations from a re-analysis of the deposited data

Results flagged for a closer look

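The sets checked were the CPM of named members, the mitochondrial and nuclear member shares and their ratio. Among these 37 sets in Aging mPF4 (n = 10, the only group of a size at which single values were checked), 8 had 1 library farther from its nearest neighbour than Dixon's 95% limit, and chance gives about 1 in 20. In Aging mPF4 8, which also had the lowest length index of its group, Uqcrc1 was at 681.5 CPM (nearest 418.2), Sdhb at 277.8 (nearest 179.3), Uqcrq at 158.9 (nearest 119.8) and mt-Nd3 at 14.93 (nearest 26.15). In Aging mPF4 11, a library rich in choroid plexus markers, Cox8b was at 10.3 CPM (nearest 3.881) and Cox6b2 at 4.415 (nearest 1.525). In Aging mPF4 1 mt-Co1 was at 7960 CPM (nearest 6680), and in Aging mPF4 5 mt-Nd6 was at 821.2 (nearest 629.8). The causes were not tested.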

How the results depend on the processing

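In every alternative run (other tests, scalings, filters, covariates, sample sets and each library left out), 0 nuclear and 0 mitochondrial members were called, and the smallest adjusted p was 0.0543 (nuclear, age, 1 library left out). With each library left out in turn, the median log2 fold change of nuclear members ran from -0.0977 to -0.0439 with age, from 0.0321 to 0.0901 with mPF4 in aging mice and from -0.0211 to 0.0429 with mPF4 in young mice, and that of mitochondrial members from 0.0078 to 0.0481, from -0.07 to -0.0211 and from 0.0164 to 0.0607. Nuclear members at an unadjusted p under 0.05 with age (9) became 5 without Young Veh 4, 21 without Aging Veh 1 and 15 with total counts as the scaling, and with mPF4 in aging mice (7) became 15 without Aging Veh 1 and 2 with the length index as a covariate. The young nuclear median turned positive without Young Veh 4 (0.0429), Young Veh 12 (0.002) or Young mPF4 1 (0.004), 6 (0.0043) or 9 (0.0031), without the 3 libraries of lowest length index (0.0326), with total counts (0.0011) and with the length index (0.0169), and the mitochondrial median with age turned negative with the length index (-0.0025) and without the 8 libraries of lowest depth (-0.0142). Per kb of the principal transcript, the mitochondrial to nuclear ratio was 1.579 (Veh) and 1.595 (mPF4) in young mice and 1.631 (Veh) and 1.549 (mPF4) in aging mice. Per kb of the longest transcript it was 1.909 and 1.933, and 1.968 and 1.865. The order of the groups was that of the read ratio with both lengths, and the level depends on the length used. Deviations of same-numbered libraries from their groups had median correlations of -0.001 (age), 0.112 (mPF4 in aging mice) and -0.082 (mPF4 in young mice). They were above 0.1 in 3 of 12, 5 of 10 and 4 of 12 pairs. The numbers were treated as names, and this check alone cannot exclude that they pair libraries. With a replicate block 0 members were called, the nuclear median with mPF4 in aging mice was 0.1065 and 11 nuclear members had an unadjusted p under 0.05 there. Over all genes, calls with age (492) became 901 with the length index, 888 without the 3 libraries of lowest length index and 176 without the 8 of lowest depth, and calls with mPF4 in aging mice (6) became 24 by DESeq2, 10 with the block or the choroid plexus score and 0 with the length index. Depth limits the rare isoforms: Cox4i2 had 0 to 29 reads a library.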
